A study of Rattus norvegicus with 8 samples.

Results

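Heparan sulfate proteoglycans of the rat abdominal aorta were examined as 10 transcripts, the syndecans Sdc1, Sdc2, Sdc3 and Sdc4, the glypicans Gpc1, Gpc3, Gpc4 and Gpc6, perlecan (Hspg2) and agrin (Agrn). They were found by symbol, and all 10 of 10 had a row among the 18090 genes of the deposited expression table. Members were selected on their symbols with the FeCl3 and saline FPKM of these same libraries known, so every difference between the groups is given here as a description. The tissue came from wild-type rats. In 4 samples a filter paper soaked in 10% iron chloride (FeCl3, named iron chloride in the labels), a salt that injures the vessel from outside and starts a thrombus, lay around the aorta for 5 min. In 4 control samples the paper carried 0.9% saline for 5 min. The replicates were described as biologically independent, the sources used here name no strain, age or harvest time, and all libraries carried the same batch label. The whole vessel piece was extracted, so that fewer cells of a type and less RNA per cell cannot be told apart in any value below. Values are FPKM, fragments scaled by gene length and by library total, so levels of different genes can be set side by side.

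A heparan sulfate proteoglycan is a core protein that carries long sulfated sugar chains. Syndecans cross the plasma membrane and act as co-receptors for growth factors and matrix, glypicans are held to the outer leaflet by a lipid anchor, and perlecan and agrin are secreted into basement membranes. In arteries the chains are part of the endothelial glycocalyx, where they bind antithrombin, tissue factor pathway inhibitor and growth factors, and perlecan surrounds each medial smooth muscle cell.

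The libraries held 24304434 to 30283292 fragments, and the 10 transcripts were covered by at least 89 fragments in each library. Haemoglobin transcripts took 16.4% to 34.1% of fragments in the FeCl3 libraries. In the saline libraries they took 1.63%, 1.30%, 1.49% and, in replicate 4, 16.5%. The mean share was 23.8% ± 7.66 after FeCl3 and 5.22% ± 7.49 after saline (mean ± SD of 4 libraries each; exact two-sided permutation test, p = 0.0571, where the smallest possible p is 0.0286). Smooth muscle markers were abundant in every library, with Acta2 at 1304 to 4260 FPKM after FeCl3 and 1790 to 10404 FPKM after saline. Saline replicate 1 had the highest Acta2 and the lowest Pecam1, an endothelial marker, at 4.58 FPKM. The other listed endothelial markers were also lowest there, except Erg (17.8 FPKM) and Esam (28.1 FPKM), which were highest in that library. Saline replicate 2 held Ucp1 of brown fat at 6272 FPKM and Krt19, a mesothelial and epithelial keratin, at 199 FPKM. The part of these differences in the proteoglycan values was not tested, except where a value without a library is given.

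Promoters of 7 of the 10 genes (Sdc1, Sdc3, Sdc4, Gpc3, Gpc4, Hspg2 and Agrn) were matched by gene ID in the RefSeq table of rat build GRCr8. The 5 shown are those the results return to. They belong to both genes whose FPKM did not overlap between the groups (Sdc4 and Agrn), to a pair that varied together (Hspg2 and Gpc4) and to the gene with the opposite course (Gpc3). Each is the 250 bases before the annotated start, read 5′ to 3′ on the gene's strand. Capitals mark the GC box (GGGCGG on either strand), TATAA on either strand and, by its consensus, the NF-kB motif.
Sdc4, chr3:173592924-173593173, minus strand: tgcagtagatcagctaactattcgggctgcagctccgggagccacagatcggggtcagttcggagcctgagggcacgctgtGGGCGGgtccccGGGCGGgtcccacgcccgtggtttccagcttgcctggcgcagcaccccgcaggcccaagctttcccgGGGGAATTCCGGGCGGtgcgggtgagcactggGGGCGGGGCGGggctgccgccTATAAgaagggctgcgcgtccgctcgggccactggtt
Agrn, chr5:172052826-172053075, minus strand: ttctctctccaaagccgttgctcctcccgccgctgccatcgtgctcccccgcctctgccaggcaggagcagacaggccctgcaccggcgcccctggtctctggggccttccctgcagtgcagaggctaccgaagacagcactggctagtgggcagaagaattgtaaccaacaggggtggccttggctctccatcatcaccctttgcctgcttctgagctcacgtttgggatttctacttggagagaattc
Hspg2, chr5:154960596-154960845, plus strand: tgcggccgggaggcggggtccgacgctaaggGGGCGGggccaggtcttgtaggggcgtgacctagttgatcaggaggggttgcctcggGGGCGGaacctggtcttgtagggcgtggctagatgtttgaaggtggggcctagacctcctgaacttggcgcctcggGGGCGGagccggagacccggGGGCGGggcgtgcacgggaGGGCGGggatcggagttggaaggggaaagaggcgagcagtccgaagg
Gpc4, chrX:136676058-136676307, minus strand: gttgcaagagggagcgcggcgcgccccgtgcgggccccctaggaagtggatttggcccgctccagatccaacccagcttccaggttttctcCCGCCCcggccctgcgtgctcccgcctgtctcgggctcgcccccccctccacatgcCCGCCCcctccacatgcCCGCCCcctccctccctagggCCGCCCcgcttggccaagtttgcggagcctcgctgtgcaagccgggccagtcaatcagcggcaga
Gpc3, chrX:137157599-137157848, minus strand: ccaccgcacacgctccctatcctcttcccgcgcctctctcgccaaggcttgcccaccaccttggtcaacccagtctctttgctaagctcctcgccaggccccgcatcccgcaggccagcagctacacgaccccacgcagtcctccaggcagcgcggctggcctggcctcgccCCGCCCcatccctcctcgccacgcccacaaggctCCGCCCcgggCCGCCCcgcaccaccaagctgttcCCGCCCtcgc

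A GC box was present in 6 of the 7 matched promoters, all but that of Agrn, and in 30.5% of all 33469 promoters of the same length. Those 6 windows had a GC content of 65.2% (Sdc1) to 80% (Sdc3), above the median of all promoters. The 30.5% is not matched for GC content, so the count is no trait of the family. The windows of Hspg2 and Sdc4 held 5 GC boxes each, and those of Gpc3 and Gpc4 held 4 each. TATAA was found in Sdc4, 37 to 33 bases before the start, and in Sdc1, against 24.0% of all promoters. Of the 7, only Sdc4 matched the NF-kB consensus, with GGGGAATTCC lying 90 to 81 bases before the start, against 3.54% of all promoters. In Sdc4 the last pair of GC boxes overlap by a base. No motif searched was found in the Agrn window, and its GC content was 60.4%, against a median of 51.2% over all promoters. These are matches of letters and not measured binding sites.

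Perlecan was the most abundant of the 10 transcripts in both groups, at 47.9 ± 17.9 FPKM after FeCl3 and 130.5 ± 55.1 FPKM after saline (± SD, n = 4 each). After FeCl3 the order of mean FPKM was Hspg2, Sdc2 (47.1), Gpc3 (41.6), Sdc1 (28.0), Sdc3 (18.9), Sdc4 (16.4), Gpc6 (12.0), Gpc4 (11.7), Agrn (6.59) and Gpc1 (3.41). After saline it was Hspg2, Sdc4 (69.96), Sdc2 (56.2), Sdc1 (51.7), Sdc3 (38.9), Gpc4 (19.4), Gpc6 (18.0), Gpc3 (16.9), Agrn (12.6) and Gpc1 (5.89). Sdc4 came last of the syndecans in FeCl3 aortas and directly after Hspg2 in saline aortas, and Gpc3 came above Sdc1 in FeCl3 aortas and below Gpc6 in saline aortas. Among neighbours in these orders, only Gpc4 and Agrn after FeCl3 had ranges that did not overlap; all other neighbours were within their spread. Averaged over all 8 libraries, the transcripts lay between the 31.9th percentile (Gpc1) and the 93.7th percentile (Hspg2) of mean FPKM among tested genes.

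**Figure D1:**
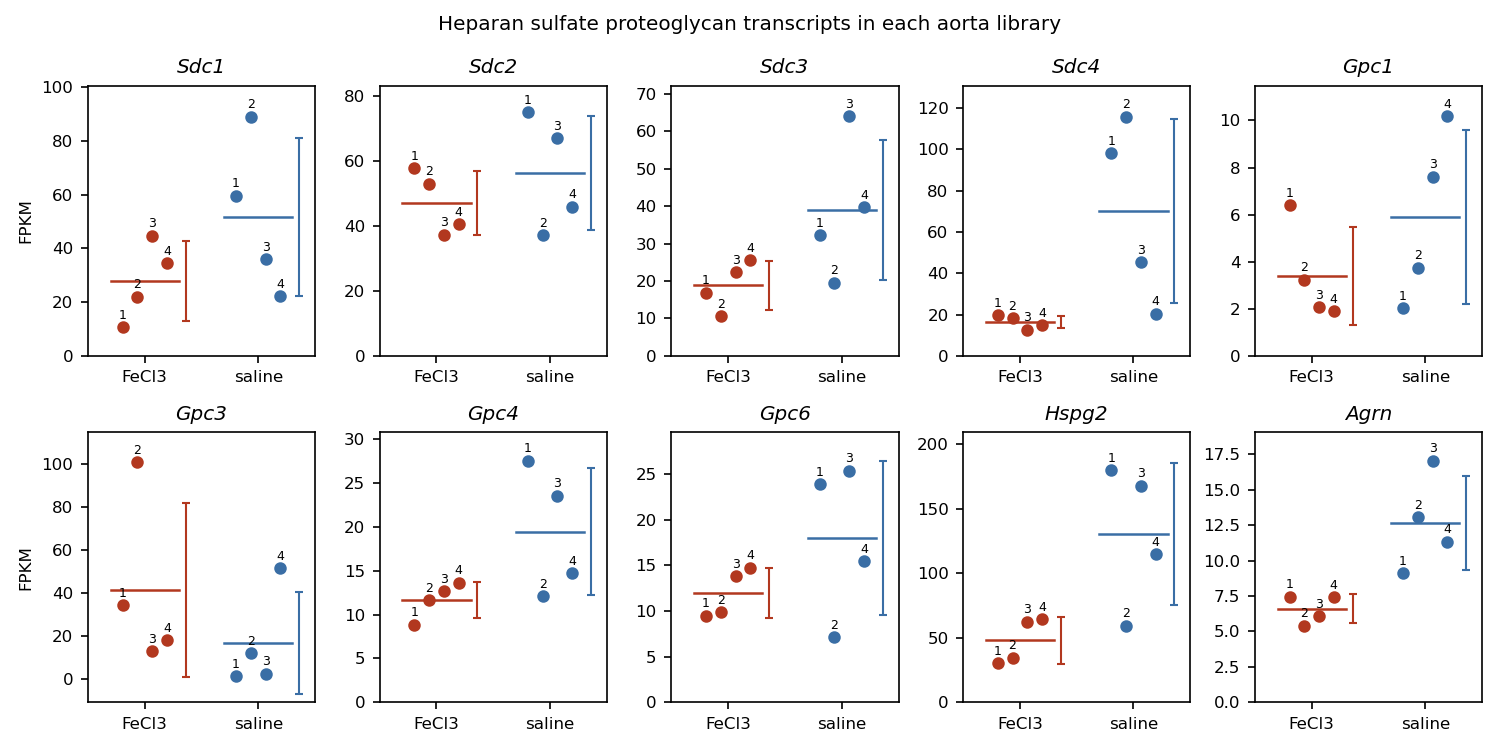
FPKM of each of the 10 transcripts in every library, with FeCl3 libraries left (red) and saline libraries right (blue); points carry replicate numbers, lines are means and bars are ± SD (n = 4), each panel with its own axis. Sdc4 (12.7 to 19.6 FPKM after FeCl3) and Agrn (5.42 to 7.46 FPKM) lay below all saline libraries, and Gpc3 was the gene with a higher mean after FeCl3.

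Across all 11921 tested genes, limma with Benjamini-Hochberg adjustment called 0 genes at 0.05, the lowest adjusted p being 0.245. Without adjustment 1981 genes (16.6%) were under 0.05, 12.2% of those tested being lower and 4.42% higher after FeCl3. Of the 10 proteoglycan transcripts, 0 were called (background 0%), 4 were at an unadjusted p under 0.05 and 9 had a negative log2 fold change, the sign of 70.2% of tested genes. Voom on recovered fragments also called 0 genes, with 4 of the 10 and 2076 of all 11921 tested genes at an unadjusted p under 0.05. The median log2 fold change was -0.73 for the 10 and -0.25 for all tested genes, and 8 of the 10 were below that all-gene median. Library scaling moved both medians: they were -1.45 and -0.90 with TPM (FPKM brought to the same sum in each library), -0.51 and -0.05 with median-of-ratios scaling, -0.49 and -0.06 with quantile normalization, and -0.45 and 0.01 with haemoglobin genes left out of the library total. With TPM, limma called 3288 genes, 3223 of them lower after FeCl3 (27% of tested genes), among them Sdc3, Sdc4, Gpc4, Hspg2 and Agrn. All fold changes are on the log2(FPKM + 1) scale, which understates those of low genes.

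Syndecan-4 (Sdc4, chromosome 3), a focal adhesion syndecan known as an early injury- and cytokine-responsive gene, had the largest negative fold change of the family. It stood at 19.6, 18.3, 12.7 and 15.0 FPKM in FeCl3 aortas, against 98.1, 115.8, 45.5 and 20.4 FPKM in saline aortas. All FeCl3 libraries lay below all saline libraries, but the gap to saline replicate 4 was small, and saline replicates 1 and 2 were far above the rest. Non-overlap in this direction was shared by 8.75% of tested genes. The log2 fold change was -1.76 ± 0.51 (SE, n = 4 each; limma adjusted p = 0.245). Without saline replicate 4, whose haemoglobin share resembled that of the FeCl3 libraries, it was -2.24 ± 0.36 with a limma adjusted p of 0.0307. In that fit 160 genes (1.34% of those tested) were called, 10 of them lower after FeCl3 (0.0839%), Sdc4 among these. This call was lost when saline replicates 1 and 4 were both left out, where Sdc4 was at -2.10 ± 0.41 (limma adjusted p = 0.119). Of the 10 transcripts 0 were then called. With the haemoglobin level as a covariate the Sdc4 fold change was -0.08 ± 0.55 (limma adjusted p = 1.000). That covariate nearly coincides with the treatment, since only saline replicate 4 of the saline libraries reached the haemoglobin share of FeCl3 libraries. Haemoglobin level and FeCl3 therefore cannot be told apart by this fit, here or for other genes. Over the 8 libraries, log2 Sdc4 and the mean of the red cell markers had a Pearson r of -0.95, and with the platelet markers r was -0.94. The groups of Sdc4 also did not overlap after quantile normalization, but overlapped after median-of-ratios scaling and with haemoglobin left out of the total.

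Syndecan-3 (Sdc3, chromosome 5), best known from nerve and muscle, stood at 16.9, 10.6, 22.3 and 25.6 FPKM in FeCl3 aortas, against 32.3, 19.5, 64.1 and 39.7 FPKM in saline aortas. The groups overlapped through saline replicate 2, which lay among the FeCl3 libraries, while the other 3 saline libraries were above all of them. Its log2 fold change was -0.95 ± 0.40 (SE, n = 4 each; limma adjusted p = 0.284). Syndecan-1 (Sdc1, chromosome 6), the main syndecan of epithelia and plasma cells and a part of the endothelial glycocalyx, stood at 10.6, 22.1, 44.8 and 34.4 FPKM in FeCl3 aortas, against 59.6, 89.1, 35.9 and 22.3 FPKM in saline aortas. Its groups overlapped widely, and the highest value was that of saline replicate 2, the library with high Ucp1 and high Krt19, a mesothelial and epithelial keratin. The log2 fold change of Sdc1 was -0.86 ± 0.53 (SE, n = 4 each; limma adjusted p = 0.420). With single libraries left out it ran from -1.19 (without saline replicate 4) to -0.48 (without FeCl3 replicate 1), and was -0.54 without saline replicate 2.

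Syndecan-2 (Sdc2, chromosome 7), the syndecan typical of mesenchymal cells, had the smallest fold change of the 4. It stood at 57.8, 52.9, 37.2 and 40.4 FPKM in FeCl3 aortas, against 74.9, 37.2, 66.9 and 45.8 FPKM in saline aortas. The ranges largely coincided, and its log2 fold change of -0.22 ± 0.28 (SE, n = 4 each; limma adjusted p = 0.701) was close to the median of all genes; it turned positive at 0.01 with median-of-ratios scaling and 0.09 with haemoglobin left out, and was -0.40 when saline replicate 2 was left out and -0.065 when replicate 1 was. The coefficient of variation of Sdc2 was 20.9% within the FeCl3 group and 31.4% within the saline group, against 18.9% and 63.7% for Sdc4.

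Ratios and shares within a library do not depend on a factor applied to the whole library, whereas sums do. Summed syndecan FPKM was 110.3 ± 6.92 after FeCl3 and 217 ± 63.8 after saline (mean ± SD of 4 libraries each). Sdc2 made up 43.2% ± 11.5 of that sum in FeCl3 aortas and 27.4% ± 9.33 in saline aortas, and Sdc4 made up 15.0% ± 3.70 in FeCl3 aortas and 29.7% ± 13.2 in saline aortas. The ratio of Sdc4 to Sdc2 was 0.339, 0.345, 0.342 and 0.372 in FeCl3 aortas, against 1.31, 3.11, 0.680 and 0.445 in saline aortas. FeCl3 libraries shared nearly the same ratio and all lay below the saline libraries, which spread widely. Of the 45 ratios between the 10 transcripts, 3 did not overlap between the groups, a count near the background, since 7.27% of the ratios between all tested genes with FPKM above 0 in every library did not overlap. Those were Sdc2 over Sdc4 (2.69 to 2.95 after FeCl3 and 0.321 to 2.25 after saline), Gpc6 over Hspg2 (0.221 to 0.313 after FeCl3 and 0.120 to 0.151 after saline) and Gpc1 over Gpc3 (0.0322 to 0.186 after FeCl3 and 0.197 to 2.89 after saline). The ratios were looked at after the FPKM were known and were not tested.

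**Figure D2:**
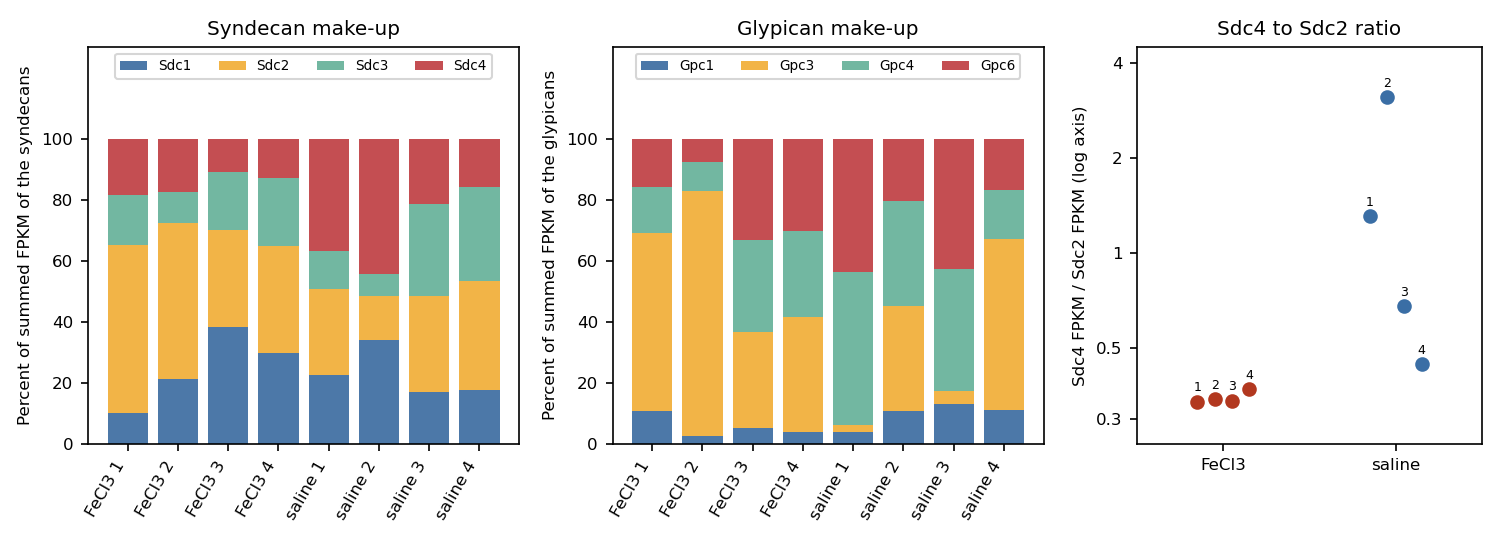
Share of each syndecan (left) and glypican (middle) in the summed FPKM of its subfamily in each library, in percent, and the ratio of Sdc4 to Sdc2 FPKM on a log axis (right; points are libraries with replicate numbers). The ratio was 0.339 to 0.372 in the FeCl3 libraries and 0.445 to 3.11 in the saline libraries, and Gpc3 took from 80.3% of the glypican sum in FeCl3 replicate 2 down to 2.42% in saline replicate 1.

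Glypicans were the subfamily in which the sum did not separate the groups, at 59.3, 125, 41.6 and 48.4 FPKM in FeCl3 aortas, against 54.7, 35.0, 59.1 and 92.1 FPKM in saline aortas. Glypican-3 (Gpc3), a fetal growth regulator that binds hedgehog and Wnt ligands, stood at 34.5, 100.8, 13.1 and 18.1 FPKM in FeCl3 aortas, against 1.32, 12.1, 2.64 and 51.7 FPKM in saline aortas. All FeCl3 libraries were above saline replicates 1, 2 and 3, and saline replicate 4 lay within their range. Gpc3 was the most variable of the 10, with a highest-to-lowest ratio of 7.70 within the FeCl3 group and 39.1 within the saline group. Its log2 fold change was 1.85 ± 1.00 (SE, n = 4 each; limma adjusted p = 0.372), 2.71 ± 0.80 without saline replicate 4 (limma adjusted p = 0.170) and -0.46 ± 1.52 with the haemoglobin covariate (limma adjusted p = 1.000). It was 1.21 without saline replicate 1, 1.28 without FeCl3 replicate 2 and 1.43 without saline replicate 3. Fibroblast markers moved with it: Gpc3 and the mean of the 10 fibroblast markers had r = 0.97 over the 8 libraries, and with the 9 macrophage markers r was 0.93. Of the 10 fibroblast markers 8 had a positive fold change, and the median log2 fold change was 1.27. The 2 negative ones were the abundant Col1a1 (-0.67) and Col1a2 (-0.49), which weigh heavily in a sum. Summed fibroblast marker FPKM was 905 to 3990 after FeCl3 and 1030 to 3576 after saline. The part of the fibroblast markers in the Gpc3 values was not tested.

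Glypican-4 (Gpc4), whose soluble form is known as an adipokine, stood at 8.84, 11.6, 12.6 and 13.6 FPKM in FeCl3 aortas, against 27.5, 12.0, 23.5 and 14.7 FPKM in saline aortas. The saline libraries split into a higher pair, replicates 1 and 3, and a lower pair, with replicate 2 inside the FeCl3 range and replicate 4 just above it, and the log2 fold change was -0.63 ± 0.29 (SE, n = 4 each; limma adjusted p = 0.314). Gpc3 and Gpc4 lie near each other on chromosome X, with 3 annotated genes between them in RefSeq build GRCr8, and took opposite courses over the libraries (r = -0.80 across 8 libraries). The ratio of Gpc3 to Gpc4 was 3.91, 8.68, 1.04 and 1.33 in FeCl3 aortas, against 0.0481, 1.00, 0.112 and 3.52 in saline aortas. Glypican-6 (Gpc6, chromosome 15), a close relative of Gpc4, stood at 9.50, 9.85, 13.8 and 14.8 FPKM in FeCl3 aortas, against 23.9, 7.16, 25.4 and 15.5 FPKM in saline aortas. Here too saline replicates 1 and 3 were the highest, and replicate 2 was the lowest of all libraries; the log2 fold change was -0.43 ± 0.38 (SE, n = 4 each; limma adjusted p = 0.571). Without replicate 2 of saline it was -0.79, without replicate 1 it was -0.26 and without replicate 3 it was -0.23.

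Glypican-1 (Gpc1, chromosome 9), a glypican of nerve and endothelium, had the lowest level of the family. It stood at 6.40, 3.24, 2.08 and 1.90 FPKM in FeCl3 aortas, against 2.02, 3.75, 7.62 and 10.2 FPKM in saline aortas. Both groups covered much the same range, and the log2 fold change was -0.58 ± 0.47 (SE, n = 4 each; limma adjusted p = 0.535). It was -0.91 without saline replicate 1 and -0.28 without saline replicate 4. The libraries with the highest Gpc1 were FeCl3 replicate 1 and saline replicates 3 and 4, which were also the 3 with the highest summed Schwann cell and nerve markers, at 1056, 1237 and 1611 FPKM against 200.2 to 463 FPKM in the other libraries. Over the 8 libraries Gpc1 and the mean of these markers had r = 0.88.

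Perlecan (Hspg2, chromosome 5), a very large basement membrane proteoglycan that links laminin and collagen IV networks to cells, stood at 30.3, 34.7, 62.5 and 64.2 FPKM in FeCl3 aortas, against 180.0, 59.5, 167.7 and 114.7 FPKM in saline aortas. Of the saline libraries, 3 were above all FeCl3 libraries and replicate 2 lay just inside the FeCl3 range. The log2 fold change was -1.38 ± 0.41 (SE, n = 4 each; limma adjusted p = 0.245); it stayed between -1.72 and -1.19 when any library was left out, and was -1.07 ± 0.43 with haemoglobin left out of the total and -1.49 ± 0.76 with the haemoglobin covariate. Smooth muscle markers moved with Hspg2 (r = 0.91 over the 8 libraries). Their summed FPKM was 4015, 7435, 11504 and 11208 in FeCl3 aortas, against 28661, 5524, 16264 and 10652 in saline aortas, and its part in the Hspg2 values was not tested.

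Agrin (Agrn, chromosome 5), which clusters acetylcholine receptors at the nerve-muscle junction and binds laminin and dystroglycan elsewhere, was the other transcript with groups apart. It stood at 7.46, 5.42, 6.06 and 7.44 FPKM in FeCl3 aortas, against 9.13, 13.1, 17.0 and 11.3 FPKM in saline aortas. The FeCl3 libraries lay close together and all below the lowest saline library, which was replicate 1. Its log2 fold change was -0.82 ± 0.24 (SE, n = 4 each; limma adjusted p = 0.245). The groups of Agrn stayed apart with median-of-ratios scaling, where 3.46% of tested genes were lower without overlap, and after quantile normalization (3.27%), but with haemoglobin left out of the total none of the 10 transcripts kept apart (2.64% of tested genes). With TPM, where 33.3% of tested genes were lower without overlap, Sdc2, Sdc3, Sdc4, Gpc4, Hspg2 and Agrn were. Agrn varied less than any other of the 10, by 15.5% within the FeCl3 group and 26.5% within the saline group (coefficient of variation).

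**Figure D3:**
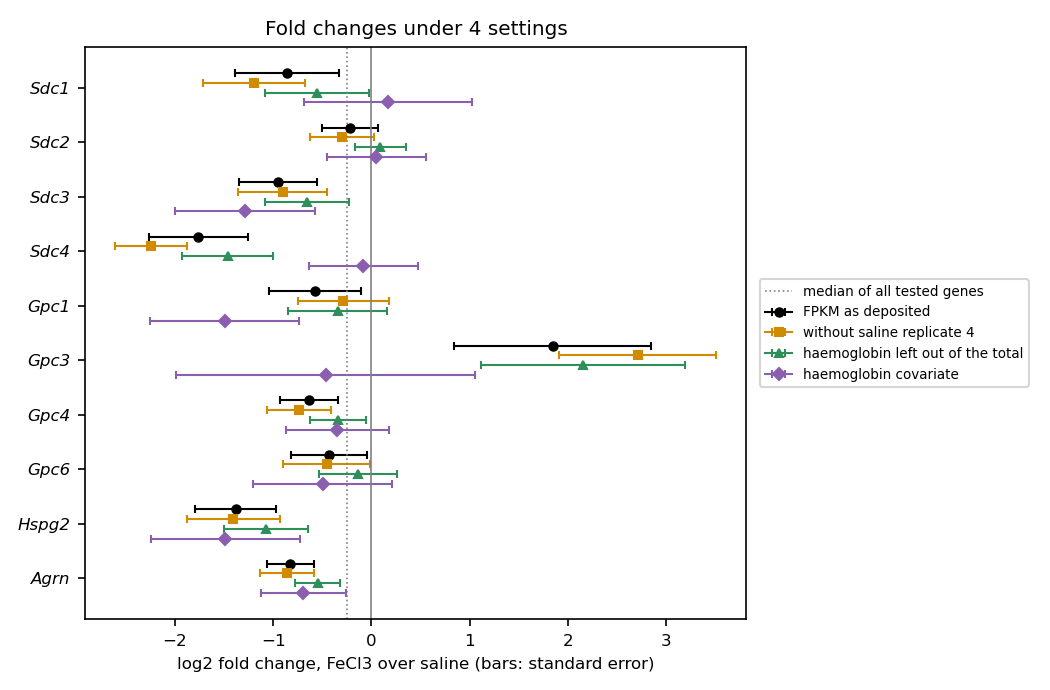
Log2 fold change of each transcript, FeCl3 over saline, with its standard error, for FPKM as deposited (circles), without saline replicate 4 (squares), with haemoglobin genes left out of the library total (triangles) and with the haemoglobin level as a covariate (diamonds); the dotted line is the median of all tested genes for FPKM as deposited, -0.25. Sdc4 ran from -2.24 without saline replicate 4 to -0.08 with the covariate, which nearly coincides with the treatment. Sdc3, Sdc4, Gpc1, Gpc4, Gpc6, Hspg2 and Agrn kept a negative value in all 4 settings, the sign of 70.2% of tested genes with FPKM as deposited. The share of tested genes negative in all 4 settings was not computed.

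Several of the transcripts varied together across the 8 libraries, as a description that includes the difference between the groups. Of the 45 pairs, 33 had a positive correlation of log2(FPKM + 1). The highest were Gpc4 with Hspg2 (r = 0.94), Sdc3 with Hspg2 (r = 0.88) and Gpc4 with Gpc6 (r = 0.88). With group means removed these were 0.90, 0.77 and 0.90. All 3 genes of the set Gpc4, Gpc6 and Hspg2 followed the smooth muscle markers, at r = 0.95 for Gpc4 and 0.86 for Gpc6. Gpc3 was the exception of the family, with its lowest correlations to Gpc4 (r = -0.80) and Hspg2 (r = -0.75). These values are among 130 between transcripts and 13 marker lists, they share the library totals, and they carry no test.

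**Figure D4:**
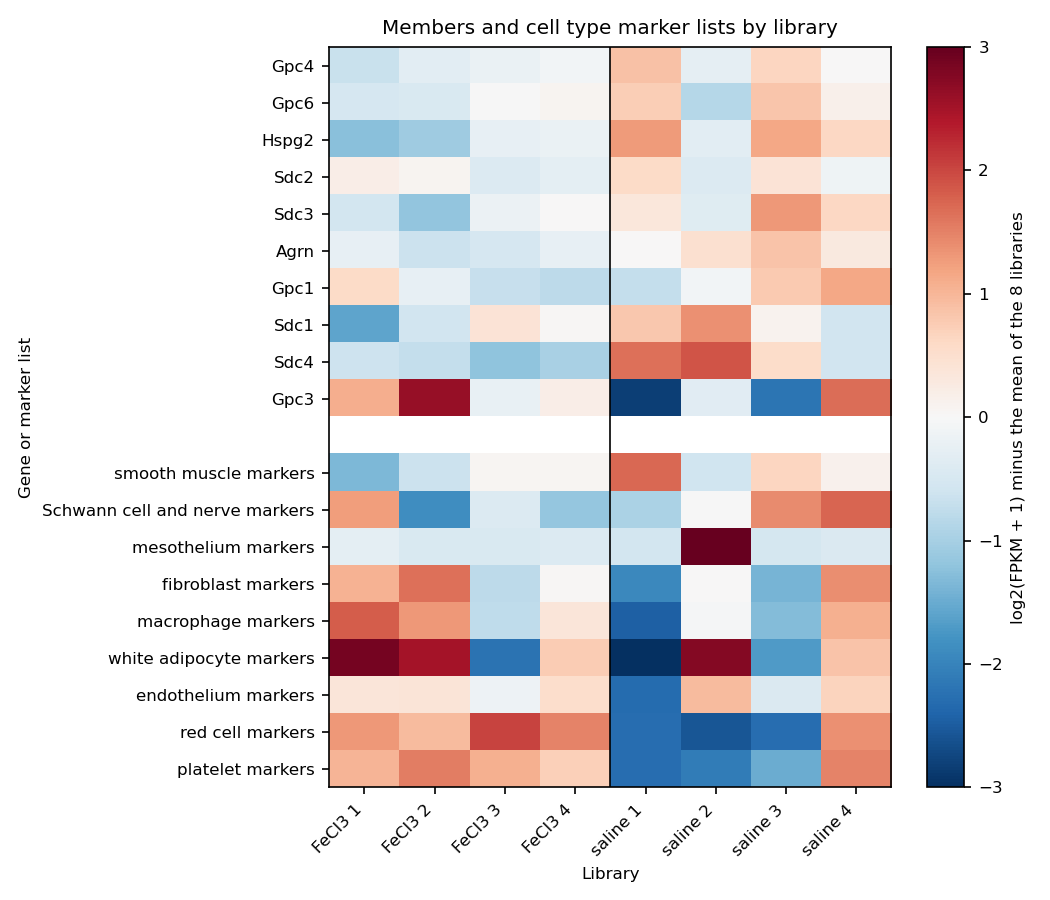
Log2(FPKM + 1) of the 10 transcripts (top) and mean of the genes of 9 cell type marker lists (bottom) in each library, minus the mean over the 8 libraries; red is higher and blue lower, colours end at 3 in either direction, and the line divides FeCl3 (left) from saline (right). Gpc4, Gpc6 and Hspg2 were highest in saline replicates 1 and 3 with the smooth muscle markers, Gpc3 followed the fibroblast markers, and Sdc4 ran against the red cell and platelet markers.

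Genes of most similar course were named for the 4 most abundant transcripts, by Pearson correlation over the 8 libraries among tested genes. For Hspg2 these were Syne1, a nuclear envelope spectrin-repeat protein, and Wdr35, an intraflagellar transport protein (r = 0.98 each), and 281 genes had r above 0.9. For Sdc2 they were Tmeff2 and Mmd (r = 0.97 each), with 14 genes above 0.9. For Sdc4 they were Mdm2, the ubiquitin ligase of p53, and Rheb, a small GTPase upstream of mTOR (r = 0.98 each), with 101 genes above 0.9. Sdc1 had the loosest company: Spint2, an epithelial protease inhibitor (r = 0.93), and Arhgef5 (r = 0.92) were the only 2 genes above 0.9. Each named gene was picked as the highest among all tested genes, so its r is high by selection. The correlations include the difference between the groups and carry no test, and a functional link was not tested.

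The enzymes that build the chains showed no call, where 0 of all 11921 tested genes were called and 70.2% had a negative fold change. Of 6 enzymes of the linker that joins the chain to the core protein, 0 were called and 5 were negative; the median of -0.30 was -0.10 with median-of-ratios scaling and -0.034 with haemoglobin left out. The most abundant were B3gat3, at 36.9 ± 11.1 FPKM after FeCl3 and 46.4 ± 22.8 FPKM after saline, and Xylt2, at 7.40 ± 2.18 FPKM after FeCl3 and 7.08 ± 3.71 FPKM after saline (± SD, n = 4 each). Of 5 chain polymerases 4 were tested, all negative, with a median of -0.35 that was -0.13 with median-of-ratios scaling and -0.076 with haemoglobin left out. Ext1, a subunit of the polymerase, stood at 19.2 ± 7.15 FPKM after FeCl3 and 29.5 ± 22.0 FPKM after saline. Extl3, which adds the sugar that starts a heparan sulfate chain, had groups that did not overlap, at 7.54 ± 1.45 FPKM after FeCl3 and 15.5 ± 1.93 FPKM after saline (log2 fold change -0.96 ± 0.21, SE; limma adjusted p = 0.245). The sulfotransferases, the epimerase and the sulfate donor synthases came to 17 genes, of which 8 were tested and 5 were negative, with a median of -0.21 that turned to 0.07 with haemoglobin left out and 0.06 after quantile normalization. Papss1, a sulfate donor synthase, stood at 14.9 ± 1.82 FPKM after FeCl3 and 20.9 ± 8.73 FPKM after saline, and Hs3st1, which makes the antithrombin binding site, at 10.3 ± 1.88 FPKM after FeCl3 and 11.9 ± 7.33 FPKM after saline. Ndst1, the main N-sulfating enzyme, did not overlap, at 5.66 ± 1.49 FPKM after FeCl3 and 14.5 ± 6.02 FPKM after saline (log2 fold change -1.15 ± 0.33, SE; limma adjusted p = 0.245). Extl3 was 1 of 4 tested polymerases, and Ndst1 1 of 8 tested genes of its list, to lie lower without overlap. The share over all tested genes was 8.75%. Ndst1 was named after its values were seen, as were Hpse, Dag1, Lamc1, Lama5, Pdcd6ip and Fgfr1; Extl3 and Hyal1 are among the most abundant of their lists and were also picked after their values were seen.

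Enzymes that trim or shed the proteoglycans also gave 0 calls, the count over all 11921 tested genes, of which 70.2% had a negative fold change. The 4 heparanase and endosulfatase genes split evenly in sign, with a median of 0.04 that turned to -0.65 with TPM and -0.49 with the haemoglobin covariate. Sulf1 stood at 15.1 ± 3.16 FPKM after FeCl3 and 14.1 ± 6.41 FPKM after saline, and Sulf2 at 11.2 ± 0.990 FPKM after FeCl3 and 13.1 ± 7.14 FPKM after saline (± SD, n = 4 each). Hpse, the heparanase that cuts heparan sulfate chains, stood at 8.84, 11.1, 8.79 and 10.3 FPKM in FeCl3 aortas, against 0.253, 4.08, 0.722 and 12.4 FPKM in saline aortas. Saline replicate 4 was the highest of all libraries, and the other saline libraries were below all FeCl3 libraries. The log2 fold change of Hpse was 1.62 ± 0.67 (SE; limma adjusted p = 0.283) and turned to -0.36 with the haemoglobin covariate. The list of sheddases, which cut syndecan ectodomains, also held Furin, a proprotein convertase, and the glypican lipase Notum. Of its 5 tested genes (Adam10, Adam17, Mmp2, Mmp14 and Furin) 4 were negative; the median of -0.47 was -0.17 with haemoglobin left out. Mmp2 stood at 99.5 ± 28.0 FPKM after FeCl3 and 151 ± 74.2 FPKM after saline, and Mmp14 at 36.8 ± 4.70 FPKM after FeCl3 and 57.2 ± 16.5 FPKM after saline.

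Binding partners gave 0 calls in every class, where 0 of all 11921 tested genes were called. Of 18 tested heparin-binding ligands 11 had a negative and 7 a positive fold change, and their median of -0.09 turned to 0.12 with median-of-ratios scaling, 0.14 with haemoglobin left out and 0.04 after quantile normalization. The most abundant were Ccn2, a matricellular growth factor, at 459 ± 180.2 FPKM after FeCl3 and 790 ± 948 FPKM after saline, and Lpl, lipoprotein lipase, at 307 ± 281 FPKM after FeCl3 and 454 ± 787 FPKM after saline (± SD, n = 4 each). Of 12 tested growth factor receptors and syndecan partners, 12 had a negative fold change with FPKM as deposited, the sign of 70.2% of all tested genes. Their median was -0.75, and with the haemoglobin covariate it was -0.43, against -0.35 for the ligands; a difference between the classes was not tested. In this class Itgb1, a matrix receptor chain, stood at 213 ± 36.7 FPKM after FeCl3 and 415 ± 251 FPKM after saline, and Sdcbp, the syntenin that binds syndecan tails, at 164 ± 25.2 FPKM after FeCl3 and 252 ± 153.9 FPKM after saline. Groups did not overlap for Pdcd6ip, the Alix partner of syntenin in exosome formation (14.9 ± 2.43 FPKM after FeCl3 and 30.5 ± 8.26 FPKM after saline), and for Fgfr1, a receptor that needs heparan sulfate to bind its ligands (33.8 ± 2.45 FPKM after FeCl3 and 64.1 ± 27.4 FPKM after saline). These were 2 of the 12 tested genes of the class, against 8.75% of all tested genes lower without overlap.

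Basement membrane partners of perlecan and agrin had a median of -1.06, the lowest of the 11 heparan sulfate lists. All 12 tested genes had a negative fold change, the sign of 70.2% of all tested genes, and 0 were called (background 0%). Of the 12, 7 were at an unadjusted p under 0.05, against 12.2% of all tested genes lower at that p. In 6 the groups did not overlap (8.75% of all tested genes). The smooth muscle markers also lay low, with 10 of 10 negative and a median of -0.996; their part in this list was not tested. Col4a1 and Col4a2, the collagen IV chains of vascular basement membranes, stood at 155 ± 29.7 and 106 ± 22.5 FPKM after FeCl3, against 339 ± 101 and 249.9 ± 81.3 FPKM after saline, with log2 fold changes of -1.09 ± 0.29 and -1.19 ± 0.29 (SE; limma adjusted p = 0.245 each). Lamc1, the laminin chain shared by most vascular laminins, stood at 38.2 ± 3.03 FPKM after FeCl3 and 120.3 ± 74.2 FPKM after saline. Lama5, an alpha chain of endothelial laminin, stood at 5.95 ± 1.09 FPKM after FeCl3 and 19.9 ± 11.8 FPKM after saline. Dag1, dystroglycan, the receptor that perlecan and agrin share, stood at 34.8 ± 8.73 FPKM after FeCl3 and 71.2 ± 5.08 FPKM after saline (± SD, n = 4 each). In all 5 of these genes the FeCl3 libraries lay below the saline libraries, as for Agrn. The median of this list stayed negative under every scaling, at -1.80 with TPM, -0.83 with median-of-ratios scaling, -0.86 after quantile normalization and -0.75 with haemoglobin left out. That was not particular to it. For growth factor receptors and syndecan partners the medians were -1.41, -0.52, -0.54 and -0.44 in the same order. Those of the other heparan sulfate proteoglycans, linker enzymes, polymerases and sheddases also stayed negative.

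**Figure D5:**
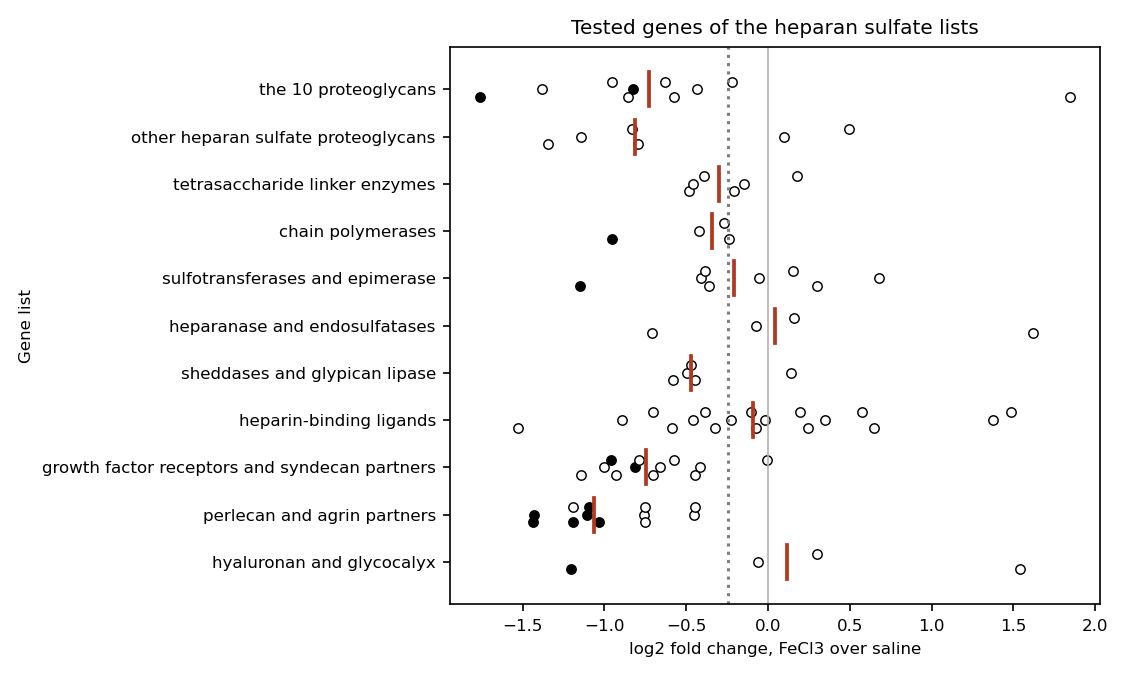
Log2 fold change, FeCl3 over saline, of the tested genes of the 10 transcripts and of 10 other lists of the heparan sulfate system; filled points are genes whose groups did not overlap, red bars are list medians and the dotted line is the median of all tested genes, -0.25. Partners of perlecan and agrin (median -1.06) lay furthest left, and the ligand and sulfotransferase lists straddled 0.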

How the data were processed

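Polyadenylated RNA of 8 abdominal aortas was sequenced, 4 after FeCl3 and 4 after saline. The authors deposited FPKM values per gene; fastp, HISAT2, HTSeq and build mRatBN7.2 are named per the submitters' processing notes, with versions and annotation not given in the sources used here. Gene lengths and library totals were recovered from the steps in which low FPKM come; for 100% of genes the values were whole fragments within 0.02, and these served as an alternative only. A gene entered the test when 4 or more libraries reached an FPKM of 1, which left 11921. Their log2(FPKM + 1) were compared between FeCl3 and saline by the moderated two-sided test of limma 3.58.1 with a trend (R 4.3.3), Benjamini-Hochberg adjusted over all of them. The fit was also run on simulated counts. These gave all libraries the same make-up apart from the altered genes, so they do not cover the haemoglobin differences seen here. Columns were matched to samples by title, and all value columns were used. The members and lists were chosen with earlier results of these data known. Named were all 10 members and, per list, genes past the threshold or else the 2 of highest mean FPKM; genes named after their values were seen are marked. Promoters and gene order came from RefSeq build GRCr8. FPKM share the library total, so a large haemoglobin share lowers every other value. Counting error of a member is limited by its fragments, at least 89 per library. Figures were drawn with matplotlib 3.10.9.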

Additional observations from a re-analysis of the deposited data

Results flagged for a closer look

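None of the 20 groups of the 10 proteoglycan transcripts held a library far from the other 3. Among 86 groups of 4 libraries examined, 3 did, and chance alone gives about 1 in 20 groups. Cell type markers such as Ucp1, Krt19 and Pf4 were not among these groups. Lpl, a white adipocyte product and heparin-binding lipase, was at 1629 FPKM in saline replicate 2, far above the other saline libraries, whose next value was 161 FPKM. Dag1 was at 47.9 FPKM in FeCl3 replicate 1, above the 29.4 to 31.4 FPKM of the other FeCl3 libraries and still below every saline library. The haemoglobin share of fragments was 16.5% in saline replicate 4, against at most 1.63% in the other saline libraries. Of the markers left out, Ucp1 was at 6272 FPKM in saline replicate 2, against at most 53.1 FPKM in the other saline libraries. Krt19 was at 199 FPKM in that library, against at most 1.55 FPKM. Pf4 was at 1579 FPKM in saline replicate 4, against at most 91.9 FPKM. The count of 3 does not cover these markers.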

How the results depend on the processing

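Over 22 alternative settings, Sdc3, Sdc4, Gpc1, Gpc4, Gpc6, Hspg2 and Agrn kept a negative log2 fold change wherever tested (Gpc1 in 21). With FPKM as deposited 70.2% of all tested genes were negative. The share that stayed negative over all settings was not computed, so the count is not read as a trait of the family. The haemoglobin covariate, which nearly coincides with the treatment, turned Sdc1 to 0.17, Sdc2 to 0.049, Gpc3 to -0.46 and Hpse to -0.36. Sdc2 was 0.010 with median-of-ratios scaling and 0.091 with haemoglobin left out. The cause of these changes was not tested. Genes called numbered 3288 with TPM, 51 without saline replicates 1 and 4, and 0 to 160 with single libraries left out (160 without saline replicate 4). Members called numbered 5 with TPM, 0 without saline replicates 1 and 4, and 0 to 1 with single libraries left out (Sdc4, without saline replicate 4). The cause was not tested. At 4 libraries per group, a p that misses the threshold does not show equal levels. No paired analysis was possible because sample titles of the groups share fewer than 2 numbers.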

Other observations

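Other carriers of heparan sulfate were measured beside the 10. Of 10 listed genes 6 were tested and 0 were called (background 0%), 4 with a negative and 2 with a positive fold change. Col18a1, the collagen that holds endostatin, stood at 131 ± 62.9 FPKM after FeCl3 and 387 ± 283 FPKM after saline, and Srgn, the granule proteoglycan of blood cells, at 83.7 ± 14.4 FPKM after FeCl3 and 61.2 ± 20.8 FPKM after saline (SD, n = 4 each). Of 8 hyaluronan and glycocalyx genes 4 were tested, 2 of each sign. Emcn, an endothelial sialomucin, stood at 30.0 ± 18.7 FPKM after FeCl3 and 16.2 ± 18.4 FPKM after saline. Hyal1, a lysosomal hyaluronidase named after its values were seen, had groups that did not overlap, at 8.23 ± 4.40 FPKM after FeCl3 and 18.3 ± 2.60 FPKM after saline. It was 1 of the 4 tested genes of its list to lie lower without overlap, against 8.75% of all tested genes.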
